A study of Mus musculus with 2 samples.

Results

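Oligodendrocyte nuclei were described in 1 Slide-tags single-nucleus RNA-sequencing library of an adult mouse, labelled as hippocampus. In this method nuclei of a frozen tissue section receive spatial barcodes before droplet capture. The nuclei were chosen by their own transcripts. A barcode was a member if it held at least 1000 UMIs (unique molecular identifiers, each marking a captured RNA molecule), under 5% mitochondrial UMIs and at least 1.5% of its UMIs from the nuclear RNA Malat1. It also had to hold a UMI for at least 3 of the 6 genes Mog, Mag, Mobp, St18, Prr5l and Ugt8a, with no more than 1 UMI over the precursor genes Pdgfra and Cspg4 and no more than 1 over the astrocyte genes Aqp4 and Gja1. By this rule 239 of the 1264 barcodes within the depth, mitochondrial and Malat1 limits were members, 18.9% (95% exact binomial interval, 16.8 to 21.2), out of 1661 barcodes in the library and 10698 in both mouse libraries of the series. They were compared with the 1025 other barcodes within those limits. The tissue came from a male C57BL/6J mouse of 56 days, from a section 20 µm thick, and no treatment or engineered allele is given in the labels. The other mouse library, an embryonic brain at embryonic day 14, was used for a single check of the rule. With 1 library there was no biological replicate, no test was possible, and every interval covers counting error only.

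Oligodendrocytes wrap axons in the central nervous system with myelin, a compacted membrane rich in galactolipids, cholesterol and a small set of structural proteins. They arise from precursors marked by Pdgfra and Cspg4, pass through a newly formed stage marked by genes such as Enpp6, Bcas1 and Gpr17, and then switch on the full myelin program under the transcription factors Olig2, Sox10 and Myrf. Mature cells keep up the sheath and supply the axon with metabolites. In a nuclear library the counted RNA is mostly unspliced and nuclear, so a level is not that of the whole cell.

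The members held 1055836 UMIs in all. Their depth per nucleus was 3226 UMIs at the median (range 1070 to 49185) with 1693 genes detected at the median, against 11258 UMIs at the median in the other barcodes. Median shares were 0.153% for mitochondrial RNA and 5.78% for Malat1. All 6 genes of the rule were held by 162 members, 5 by 46, 4 by 19 and 3 by 12. Summed over the members, the rule's genes stood at 940 CPM (UMIs of a gene per 1000000 UMIs of the summed nuclei) for Mog, which encodes an outer myelin glycoprotein, 1231 CPM for Mag, an adhesion protein facing the axon, and 1021 CPM for Mobp, a basic protein of compact myelin. St18, a zinc finger factor, stood at 2480 CPM, Prr5l, a partner of mTORC2, at 1812 CPM, and Ugt8a, which makes galactosylceramide, at 787 CPM. These values chose the members and are given as a description.

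The label was checked against neuronal genes, which the rule did not limit. Of the members, 151 held no UMI for any of Rbfox3, Snap25, Syt1, Snhg11, Celf4 and Grin2a, and 72 held 1 to 3 of these 6 genes. The remaining 16 nuclei, called neuron-rich below, held 5 or 6 of them, and no member held exactly 4. These 16 were deep, with 16666 UMIs at the median, and contributed 25.5% of all member UMIs. Their CPM of myelin genes was lower than that of the other 223 members, for instance 699 against 4898 CPM for Mbp and 160 against 1206 CPM for Mog. Scrublet scores marked 12 members as likely doublets, among them 8 of the 16. The neuron-rich nuclei therefore go against the label on neuronal genes, and summed values include them unless stated. Values without them are added for many of the counts that changed and for the genes described most fully. Other counts may differ without these 16 nuclei. Their part in each difference was otherwise not tested.

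At the edge of the rule, the 12 members with exactly 3 of the 6 genes had 1769.5 UMIs at the median and 748 CPM of Mbp, which the rule did not use, and 3 of them were neuron-rich. The 35 barcodes with exactly 2 of the 6 genes, just outside, had 18495 UMIs at the median and 109 CPM of Mbp, and 29 of them held 4 or more neuronal genes. A further 20 barcodes held 3 or more of the 6 genes but exceeded the limit on the precursor pair (9 barcodes) or the astrocyte pair (14 barcodes). With 1571 CPM of Mbp they are counted among the other barcodes and hold 420 of the 1566 Mbp UMIs there.

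**Figure D1:**
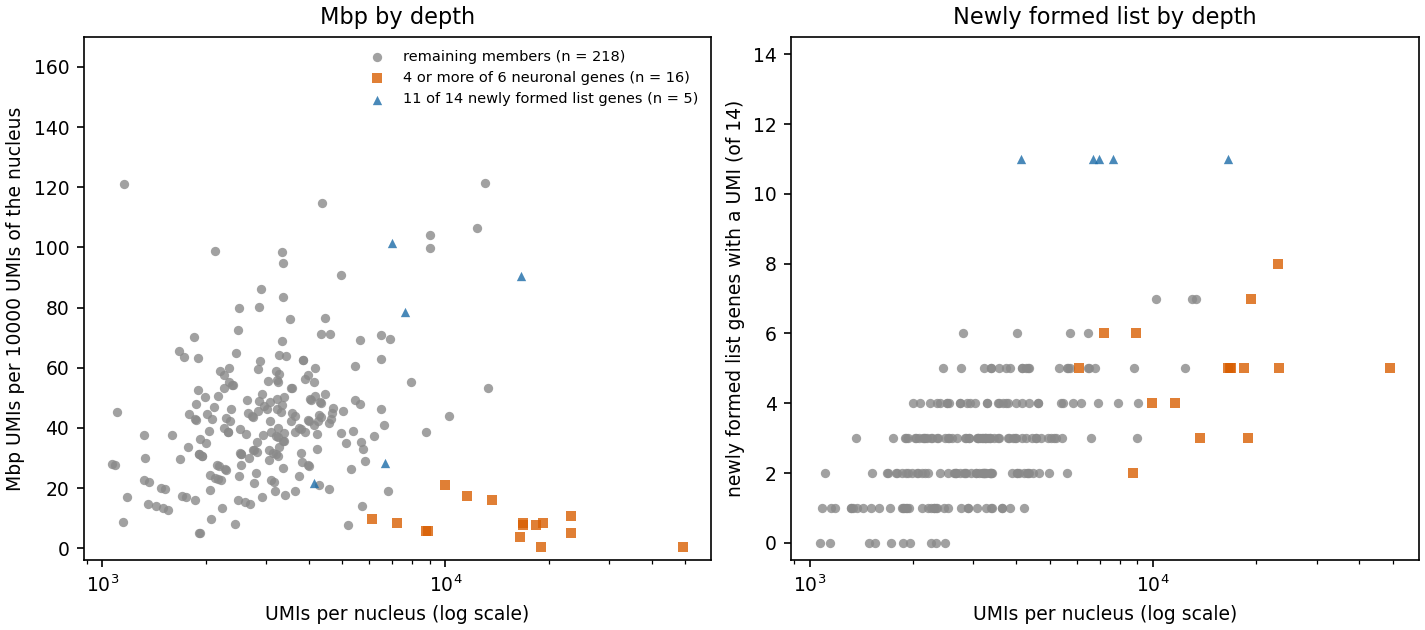
Each point is 1 of the 239 member nuclei, placed by its UMIs (log scale) and, on the left, by its Mbp UMIs per 10000 UMIs, on the right by the number of 14 newly formed list genes with a UMI. The 16 neuron-rich nuclei (orange squares) lie at high depth and low Mbp, and 5 nuclei (blue triangles) hold 11 of the 14 genes, while no other member holds more than 8.

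In the comparison with the other barcodes, a gene was taken into account where both groups together held 50 UMIs, and was called at a ratio of summed CPM of 4 or more, or of 0.25 or less. Of 13797 genes, 627 (4.54%) were 4-fold higher in members and 801 (5.81%) were 4-fold lower, and the median ratio was 0.915. Without the neuron-rich nuclei 807 of 13754 genes (5.87%) were higher and 1794 (13%) lower. The ratios of oligodendrocyte genes follow in part from the choice of members on 6 genes of the same program, so they are descriptions of size.

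Myelin structural genes had the highest median ratio of the lists outside the genes of the rule. Of the 15 listed, 14 were counted often enough, and 13 of these were 4-fold higher, with a median ratio of 65.5 (83.4 without the neuron-rich nuclei). Mbp, which holds the cytoplasmic faces of myelin together, was detected in every member, from 1 to 158 UMIs (median 13) over the 223 nuclei that were not neuron-rich, at 3829 CPM against 114 CPM, a ratio of 33.6 (31.7 to 35.6), or 43.0 without the neuron-rich nuclei. With all 239 members, and the 20 barcodes beyond the precursor or astrocyte limits left out of the other barcodes, the Mbp ratio was 45.0. Opalin, a membrane glycoprotein of the sheath, was held by 168 members and ranged from 0 to 21 UMIs, with a ratio of 152 (111 to 213) that was 782 without those 20 barcodes. Mal, which sorts myelin proteins to the membrane, had a ratio of 63.1 (55.8 to 71.5), or 79.7 without the neuron-rich nuclei, and Cldn11, which forms the radial tight junctions, a ratio of 138 (109 to 177). The connexin gene Gjb1, for gap junctions within the sheath, had a ratio of 136 (73.3 to 280). The exception was Omg, a glycoprotein also made by neurons, with 34.1 against 17.6 CPM and a ratio of 1.94 (1.32 to 2.76). Omg lies within Nf1 on the other strand, and whether its reads were kept apart from those of Nf1 was not tested. Myoc, for the secreted protein myocilin, had no UMI in any member.

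Genes of myelin lipids divided by pathway. Of 20 listed names, 19 were in the files and passed the minimum, and 11 were 4-fold higher, with a median ratio of 6.99. The enzymes of galactolipids and fatty acids were high. Aspa, which releases acetate from N-acetylaspartate for lipid synthesis, stood at 940 against 5.53 CPM, a ratio of 170 (135 to 218), with a UMI in 212 members. Fa2h, which hydroxylates the fatty acids of myelin galactolipids, had a ratio of 94.8 (76.5 to 119), Gal3st1, which makes sulfatide, one of 44.7, and the elongase gene Elovl7 one of 24.7. Enpp2, encoding the secreted enzyme autotaxin, had a ratio of 48.4 (43.1 to 54.6). Genes of the sterol pathway lay lower. Hmgcs1, at an early step of cholesterol synthesis, had a ratio of 3.21 (2.72 to 3.78), and Msmo1 one of 2.48, and none of the 7 sterol genes on the list reached 4-fold. Sgms1, a sphingomyelin synthase gene, was the lowest of the list at 106 against 189 CPM, a ratio of 0.561 (0.460 to 0.678).

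Of 14 listed transcription factors, 12 were counted often enough, and 8 of them were 4-fold higher, with a median ratio of 17.0. Sox10, required throughout the lineage, had 283 against 7.57 CPM and a ratio of 37.4 (29.8 to 47.2), with a UMI in 144 members. Myrf, the activator of myelin genes, had a ratio of 45.2 (33.1 to 62.6), Nkx6-2 of 51.6 (33.8 to 81.2), Olig1 of 25.2 (19.6 to 32.6) and Olig2 of 21.7 (13.8 to 34.5). Counts of these factors were low, with a median of 1 UMI or less per nucleus. Creb5 had a ratio of 42.6, whereas Zeb2, also used by other cell types, had one of 2.26 and Tcf7l2, a Wnt pathway factor of differentiating oligodendrocytes, one of 1.29. Myt1, a factor of neurons and of early lineage cells, was found in 4 members, all neuron-rich.

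**Figure D2:**
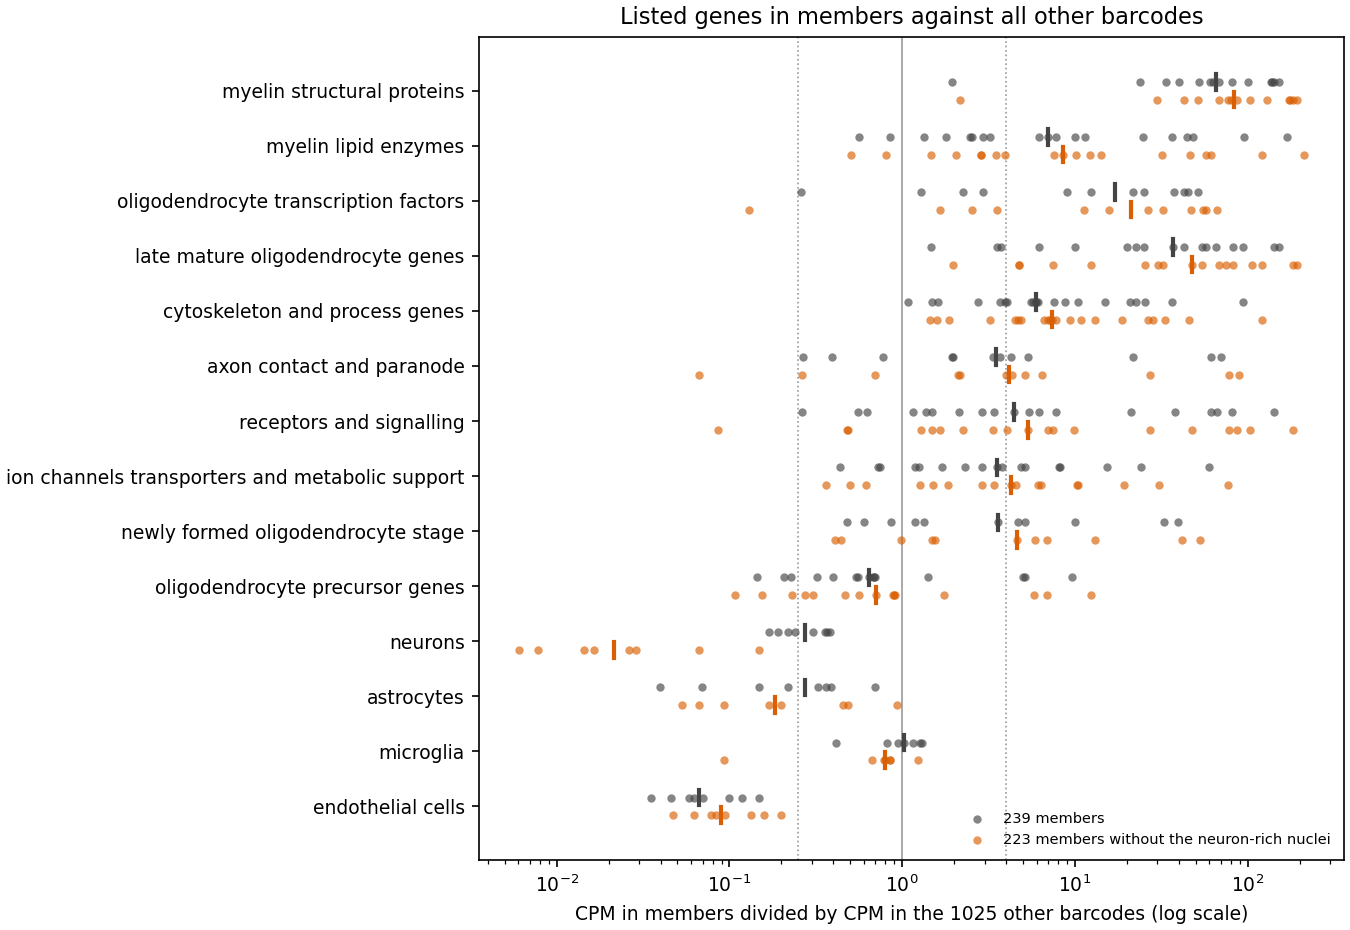
Each point is a listed gene with 50 or more UMIs in the compared groups, placed by its CPM in members divided by its CPM in the 1025 other barcodes (log scale), and short bars mark the median of each list. Myelin structural genes centre at 65.5 in all 239 members (grey) and 83.4 in the 223 without the neuron-rich nuclei (orange), and the neuronal list moves from a median of 0.273 to 0.0213.

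Genes reported for late mature oligodendrocytes were present across the members. Of 17 counted often enough among 19 listed names, 14 were 4-fold higher (16 without the neuron-rich nuclei), with a median ratio of 37.1. Trf, the iron carrier transferrin, was held by 227 members, from 0 to 44 UMIs with a median of 6, and had a ratio of 82.7 (72.4 to 94.8), or 106 without the neuron-rich nuclei. Ptgds, a prostaglandin D2 synthase, was held by 194 members, from 0 to 50 UMIs with a median of 5, and had a ratio of 65.2 (58.1 to 73.2), or 82.4 without them. Il33, a nuclear alarmin, had a ratio of 54.6 (44.6 to 67.2), or 68.7 without them, Car2, a carbonic anhydrase, one of 25.2 and the small heat shock protein gene Cryab one of 42.9. Their spread between nuclei included zeros for each of these genes. Klk6, a protease gene, was rare, with 17 UMIs in 8 members and none in any other barcode. With the empty group set to the floor of 3 counts its ratio was 73.8, although this gene lay below the minimum of 50 UMIs. Hopx, with 18 UMIs in 12 members, had a ratio of 1.47 (0.851 to 2.41).

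Cytoskeletal and process genes were higher as a group, 15 of the 21 counted often enough by 4-fold (17 without the neuron-rich nuclei). None was 4-fold lower. Tubb4a, a tubulin of oligodendrocytes, was held by 227 members and had a ratio of 20.8 (18.8 to 23.1). Sept4, a septin of the sheath, had a ratio of 22.6 (20.1 to 25.3), Phldb1 one of 36.3 and Dock5, an activator of Rac, one of 93.5 (66.7 to 134). Ank3, which encodes ankyrin-G of nodes and paranodes and is also used by neurons, had a ratio of 1.49 (1.43 to 1.56).

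Genes of axon contact were more mixed. Of 12, all counted often enough, 5 were 4-fold higher and the median ratio was 3.50. These counts became 6 higher and 1 lower without the neuron-rich nuclei. Ninj2, an adhesion protein, had a ratio of 70.1 (56.4 to 87.9), Cntn2, an adhesion protein of the juxtaparanode, one of 21.8 (18.1 to 26.3) and Nfasc, whose glial form anchors the paranode, one of 5.32 (4.95 to 5.72). Lpar1, a receptor for lysophosphatidic acid, had a ratio of 61.2. Lingo1, an inhibitor of myelination, had 114 CPM in the other barcodes and 30.3 CPM in all members, and 7.62 CPM in the 223 nuclei that were not neuron-rich.

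Receptors and signalling genes followed the same mixed pattern, with 10 of 19 4-fold higher and a median ratio of 4.46. Leaving out the neuron-rich nuclei gave 11 higher and 1 lower. The neuregulin receptor genes Erbb3 and Erbb4 had ratios of 66.6 (39.3 to 120) and 5.44 (5.15 to 5.74), at 82.4 and 1762 CPM, and that of Erbb4 was 6.97 without the neuron-rich nuclei. Plxnb3, a plexin, had a ratio of 80.8 (49.5 to 139), Gpr37, a brake on differentiation, one of 21.1 (17.0 to 26.4) and the sphingosine 1-phosphate receptor gene S1pr5 one of 38.2. The neuronal adhesion receptor gene Adgrb3 stood at 557 CPM in all members and at 182 CPM without the neuron-rich nuclei, against 2121 CPM elsewhere.

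Among 18 genes of ion transport and metabolic support, 17 were counted often enough, 7 were 4-fold higher and none was 4-fold lower. The 7 became 9 without the neuron-rich nuclei, still with none lower. The connexin gene Gjc3 had a ratio of 59.6 (49.3 to 72.6), the chloride cotransporter gene Slc12a2 one of 15.4 and Kcnj10, for the potassium channel Kir4.1, one of 8.11 (6.47 to 10.1). Slc16a1, for the lactate transporter MCT1, was held by 39 members with 46 UMIs and a ratio of 2.32 (1.66 to 3.19). The lactate dehydrogenase genes Ldha and Ldhb had ratios of 0.739 and 0.436.

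Outside the rule and irrespective of the lists, the 15 genes with the highest ratios were Gm44866, Galnt6, Galnt5, 9330117O12Rik, Tnni1, Cyp2j12, Cldn14, 7630403G23Rik, Aspa, Gm13905, Gm48370, Gm19500, A330049N07Rik, Opalin and C030029H02Rik. Their ratios ran from 254 down to 150. The unnamed RNA Gm44866 was held by 97 members, at 185 against 0.728 CPM. Galnt6, for an enzyme of mucin-type glycosylation, had a ratio of 239, Cldn14, for a claudin, one of 176 and Tnni1, for the troponin I of slow muscle, one of 219. Of these genes, 2 overlap genes of the oligodendrocyte program. Strand use in counting is not stated in the sources used here, and whether reads of the overlapping pairs were kept apart was not tested. Galnt5 (chr2:57997884-58045860, plus strand) overlaps Ermn, a cytoskeletal gene of oligodendrocytes on the other strand, and Gm13905 (chr2:101872175-101883256, plus strand) overlaps Prr5l on the minus strand (coordinates from GENCODE vM21 on GRCm38, which is mm10).

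The 10 genes with the lowest ratios were Synpo2, Lef1, Nxph1, Slco1a4, Slco1c1, Ebf1, Kcnc2, Rgs5, Lhfp and Ly6c1. Slco1c1, Ebf1 and Ly6c1 had no UMI in any member. Lef1, a Wnt factor of thalamic neurons and endothelium, had 2 UMIs in members against 113 CPM in the other barcodes, and Nxph1, a gene of precursors and interneurons, had 5 UMIs.

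Markers of most other cell types were lower in members than elsewhere, with exceptions among ependymal and microglial genes. All 8 endothelial genes were 4-fold lower. Summed over the list they stood at 28.4 CPM against 488 CPM elsewhere, and 14 of the 15 Flt1 UMIs were in 1 nucleus. The 8 pericyte and fibroblast genes summed to 1.89 CPM, with 6 of them at 0, against 130 CPM in the other barcodes. The 8 astrocyte genes, 2 of them used by the rule, summed to 436 CPM against 1768 CPM. Of these 8, 4 were 4-fold lower (5 without the neuron-rich nuclei). The 8 microglial genes summed to 192 CPM (130 without the neuron-rich nuclei) against 249 CPM. None of the 7 counted often enough was called with all members, and 1 was 4-fold lower without those nuclei. The ependymal and choroid plexus genes summed to 12.3 CPM with 5 of 8 at 0, which was not lower than the 11.4 CPM in the other barcodes, and the 6 genes of myelinating Schwann cells, which make peripheral myelin, to 17.0 CPM with 3 at 0, against 33.0 CPM. Stress and immediate early genes summed to 101 CPM against 190 CPM, with 1 of 7 4-fold lower, and to 62.3 CPM with 4 of 7 4-fold lower without the neuron-rich nuclei.

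For neuronal genes the answer rested on the 16 neuron-rich nuclei. All 8 listed neuronal genes, of which 6 defined those nuclei, were lower than in the other barcodes, but only 4 of 8 passed 4-fold with all members, while 8 of 8 did without the neuron-rich nuclei. The summed level went from 3025 to 300 CPM, against 13577 CPM in the other barcodes. Meg3, a neuronal long noncoding RNA that was not used to define the neuron-rich nuclei, stood at 666 CPM with them and 64.8 CPM without them, against 3933 CPM. Thalamic neuron genes were 4-fold lower in 7 of 8 cases either way. Of the other barcodes 191 held 3 or more of these 8 genes, and where in the section each member lay was not analysed. Of the dentate and CA1 neuron genes, 3 of 8 were 4-fold lower with all members and 7 of 8 without the neuron-rich nuclei. The exception was Prox1, a homeobox factor widely used to mark dentate granule neurons. It stood at 288 CPM in the 223 nuclei against 166 CPM over all other barcodes together, a ratio of 1.73. Of the 7 inhibitory neuron genes counted often enough, Erbb4 alone was 4-fold higher and 3 were 4-fold lower, and Gad2, for an enzyme of GABA synthesis, had 6 UMIs in members.

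Nuclear long noncoding RNAs differed among themselves. Malat1, which the rule limited from below, was at a ratio of 1.11, while Neat1, the scaffold of nuclear paraspeckles, stood at 840 CPM (786 to 897) against 21.7 CPM, a ratio of 38.7 (33.9 to 44.3), or 48.8 without the neuron-rich nuclei. Neat1 was held by 195 members, from 0 to 28 UMIs with a median of 3. Of the 9 counted often enough, 1 was 4-fold higher and 3 were 4-fold lower, which became 5 without the neuron-rich nuclei. Rmst, found in astrocytes at 294 CPM, had no UMI in any member.

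Because members were shallower than the other barcodes, shares of nuclei with a UMI were compared after each nucleus was thinned to 1000 UMIs, which left out none. At this depth Mbp was found in 95.4% of members (91.9 to 97.7), 21.9% of 32 precursors, 27.0% of 137 astrocytes and 6.30% of 746 neurons (4.67 to 8.29), a class that should hold little of it. Before thinning the Mbp shares were 100% in members and 48.9% in neurons, with 3226 and 13580 UMIs at the median. Ptgds was in 64.4% of members (58.0 to 70.5) and 0.268% of neurons, and Opalin in 42.7% (36.3 to 49.2) and 0.134%. Neat1 was in 59.8% of members, 14.6% of astrocytes and 0.134% of neurons. For Erbb4 the share was 68.6% in members (62.3 to 74.4) and 68.8% in precursors (50.0 to 83.9), with intervals that overlap almost wholly, against 3.75% in neurons. Prox1 was in 21.3% of members (16.3 to 27.1) and in 15.8% of neurons (13.3 to 18.6), and these intervals also overlap. Thinned to 2000 UMIs, which left out 39 members and 4 neurons, Prox1 was in 43.0% of members (36.0 to 50.2). It was in 28.2% of neurons (25.0 to 31.6), and these counting intervals no longer overlap. The neurons were not divided by type, so a share for dentate granule neurons alone is not given. The neuronal RNA Snhg11 was in 7.11% of members and 65.3% of neurons.

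**Figure D3:**
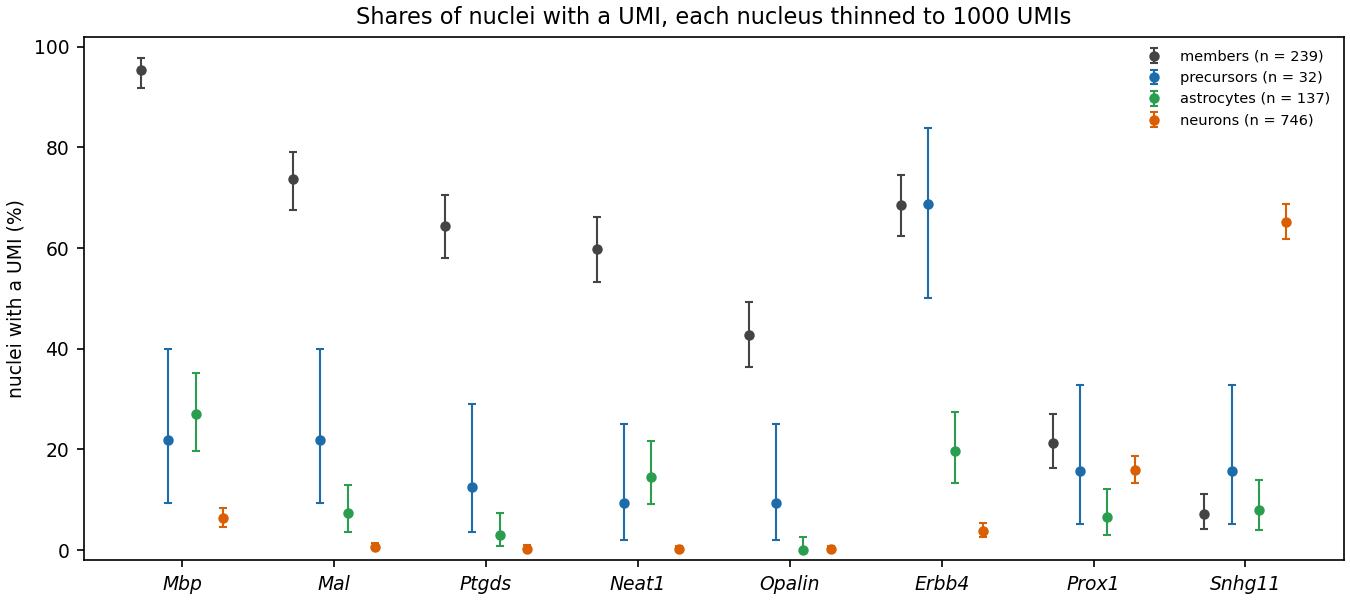
Points give the percentage of nuclei with a UMI for each gene after thinning every nucleus to 1000 UMIs, and bars give 95% exact binomial intervals. Mbp reaches 95.4% in members and 6.30% in neurons, and Erbb4 is near 69% in both members and precursors.

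The nearest lineage in the library was the precursors, 32 barcodes with at least 2 UMIs over Pdgfra and Cspg4. Against them 243 of 5279 genes (4.6%) were 4-fold higher in members and 160 (3.03%) 4-fold lower. This reference was mixed. Of the 32, 6 held 3 or more of the 6 member genes, 11 held 4 or more neuronal genes, and 6 held 3 or more pericyte and fibroblast genes, a group in which Cspg4 is also expressed. The 6 nuclei with member genes decided the myelin values. With all 32 precursors, Mbp was 5.73-fold higher in members, and with the 26 others as the reference it was 22.8-fold higher (15.9 to 33.8), at 3829 against 168 CPM. Mal moved from 3.84-fold to 17.0-fold (10.3 to 30.4) and Ptgds from 7.69-fold to 75.9-fold (29.6 to 279). Mog and Opalin had no UMI in the 26, and with the floor of 3 counts their ratios were 55.8 and 27.6. Mog is among the 6 genes that decided which nuclei were left out, so its absence from the 26 follows in part from that choice. Mbp, Mal, Ptgds and Opalin belong to the same program, so their changed ratios are descriptions of size as well.

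Lineage factors were divided in this comparison. Against the 26 precursors 361 of 5062 genes (7.13%) were 4-fold higher in members and 191 (3.77%) 4-fold lower. Of 12 transcription factors counted often enough, 4 were 4-fold higher (Myrf, Nkx6-2, Creb5 and Zfp536) and Myt1 was 4-fold lower, with a median ratio of 1.45. Sox10 was at 283 CPM in members and 247 CPM in precursors, a ratio of 1.15 (0.834 to 1.61), and Olig2 at 52.1 and 84.1 CPM, a ratio of 0.619 (0.345 to 1.18). The intervals of these ratios include 1. Erbb4 had a ratio of 1.00 (0.890 to 1.13). Myrf had 1 UMI in the 26 precursors and 184 UMIs in members. Of 16 precursor genes, 12 were counted often enough, and 10 were 4-fold lower in members with all 32 precursors and with the 26. Lhfpl3 stood at 40.7 CPM in members and 3276 CPM in the 26 precursors, a ratio of 0.0124 (0.00890 to 0.0170), and Ptprz1, a receptor phosphatase, at 46.4 and 2081 CPM, a ratio of 0.0223. The remaining pair, the matrilin gene Matn4 and the synaptic adhesion gene Lrrtm3, did not pass 4-fold. Both were 4-fold higher in members than in the other barcodes, with ratios of 9.65 (6.85 to 13.5) and 4.98 (4.56 to 5.44). Gpr17 also passed, at 5.14, but 13 of its 15 UMIs lay in the 5 nuclei described below. The 218 members outside them and the neuron-rich set held 2.68 CPM of Gpr17 against 2.76 CPM in the other barcodes. Lrrtm3 overlaps Ctnna3 on the other strand, and whether the reads of this pair were kept apart was not tested.

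Against the 137 astrocytes, 440 of 7919 genes (5.56%) were 4-fold higher in members and 636 (8.03%) 4-fold lower. This reference was also mixed, with 4 or more neuronal genes in 36 of the 137 and 3 or more endothelial genes in 10. Their part in the genes called lower was not tested. A further limit is that 11 astrocyte barcodes held 3 or more member genes. Without these 11 the Mbp ratio moved from 8.21 to 11.1 (10.0 to 12.4). That of Sox10 moved from 14.1 to 103 (42.4 to 1282), with 2 UMIs in astrocytes set to the floor of 3. Genes shared by both glial classes included Grm3, a metabotropic glutamate receptor gene, at 1025 CPM in members and 765 CPM in astrocytes, a ratio of 1.34. The sterol gene Msmo1 was lower in members, at 111 against 235 CPM, a ratio of 0.472, and Kcnj10 was at 125 and 119 CPM. Against the 746 neurons, 731 of 12896 genes (5.67%) were 4-fold higher and 767 (5.95%) lower, and all 16 late mature genes counted often enough were 4-fold higher. Without the neuron-rich nuclei the genes that were 4-fold lower numbered 1169 against astrocytes and 1691 against neurons.

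Among the members, 5 nuclei stood apart by genes of the newly formed stage. The stage list held 14 genes, of which 11 were counted often enough. Of these, 5 were 4-fold higher in members than elsewhere, or 6 without the neuron-rich nuclei. Among them were Enpp6, a choline phosphodiesterase of new oligodendrocytes, at a ratio of 39.6 (28.7 to 55.4), and Bcas1 at 32.8 (28.6 to 37.7). Each of the 5 nuclei held 11 of the 14 genes, the next member held 8, and no member held 9 or 10. Of the 32 precursors, 3 held 8 of these genes and 2 held 9, and none held more. The limit of 9 genes was set after these values were seen, so the list genes themselves are a description. The 5 nuclei had depths of 4129, 6677, 6987, 7649 and 16572 UMIs. The 16 neuron-rich nuclei were deeper at the median and held at most 8 of the genes. None of the 5 was neuron-rich or among the likely doublets.

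In order of depth, the 5 nuclei held 7, 8, 11, 15 and 4 UMIs of Enpp6, while 171 of the 218 remaining members held none. They held 6, 13, 64, 22 and 15 UMIs of Tcf7l2, which was not on the list. All 5 were high for this factor, at 2856 against 61.7 CPM in the 218, a ratio of 46.3 (32.7 to 66.5). The long noncoding RNA 9630013A20Rik had 2, 23, 26, 40 and 224 UMIs in them, at 7497 against 290 CPM, a ratio of 25.9 (21.7 to 30.9). It lies at chr14:84458639-84476424 on the minus strand, within the span of Pcdh17 on the plus strand, and Pcdh17 had 3, 12, 13, 30 and 118 UMIs in the same nuclei. Both series increase together over the 5 nuclei, and whether their reads were kept apart by strand was not tested. Tnr, for the matrix protein tenascin-R of the precursor list, had 36, 71, 41, 48 and 1 UMIs, so the deepest nucleus was unlike the others. Sox6, a factor of precursors, had 18, 31, 0, 4 and 0 UMIs.

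Mbp was present in these nuclei and several late genes were missing. Mbp had 9, 19, 71, 60 and 150 UMIs, at 7355 CPM against 4760 CPM in the 218, a ratio of 1.55 (1.37 to 1.74). The nuclei with 9 and 19 UMIs lay below the level of the 218 and the others above it. The deepest held 150 of the 309 UMIs. Mog had 3, 2, 0, 0 and 6 UMIs and Mobp 0, 0, 1, 3 and 57 UMIs, so the deepest nucleus held nearly all Mobp of the set. Ptgds, Il33, Apod, Anln and Prr5l had no UMI in any of the 5, against 2274, 628, 902, 374 and 2435 CPM in the 218. With the floor of 3 counts, Prr5l was 34.1-fold lower and Ptgds 31.8-fold lower. The upper limits of these ratios were 0.0361 and 0.0387. Trf had 0, 0, 0, 1 and 2 UMIs and Mal 0, 0, 0, 0 and 3. Among the 218, Ptgds was held by 180, Apod by 182 and Trf by 210 nuclei, so zeros of these genes were not particular to the 5. These nuclei also had less mitochondrial RNA at the median, 0.0483% against 0.163%, and 7.33% against 5.76% Malat1, whose part was not tested.

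**Figure D4:**
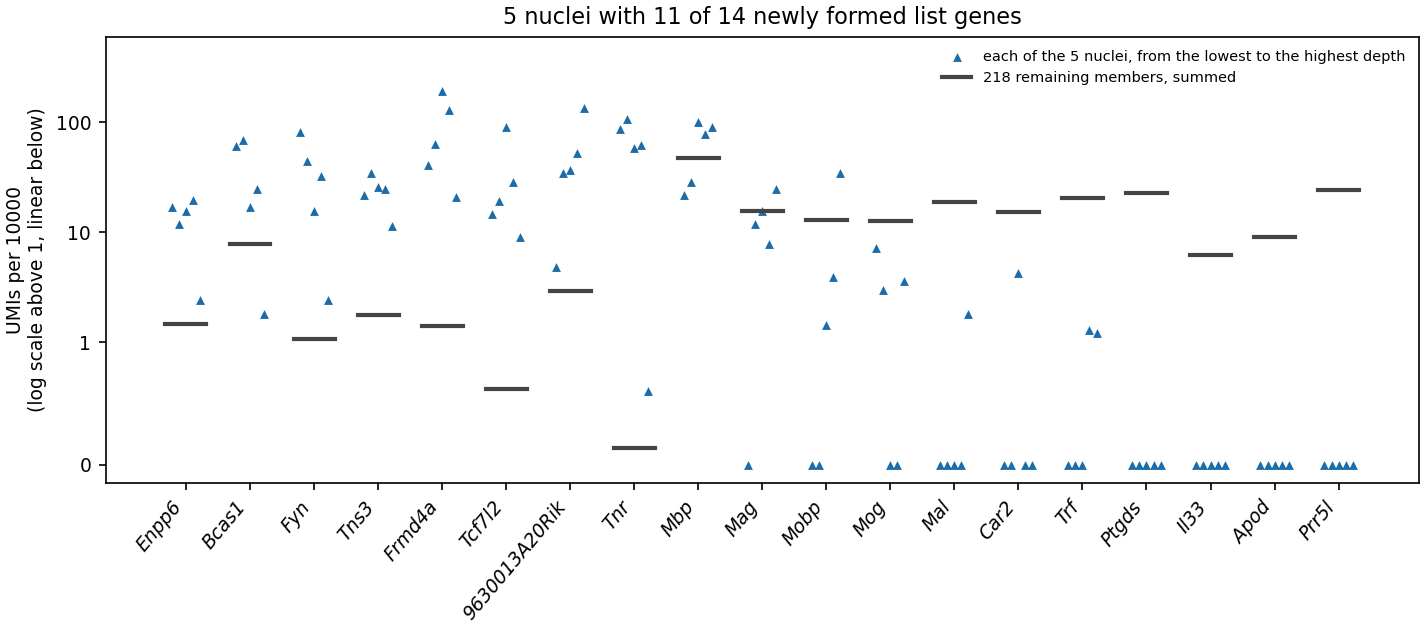
Blue triangles give the UMIs per 10000 of each of the 5 nuclei, from the lowest to the highest depth within a gene, on a scale that is logarithmic above 1 and linear below. Dark bars give the summed value of the 218 remaining members. Tcf7l2 and 9630013A20Rik lie above the bar in all 5 nuclei, and Ptgds, Il33, Apod and Prr5l lie at 0 in all 5.

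How far nuclei varied was measured by the variance ratio, the scatter of a gene's UMIs over nuclei divided by that of counting at each nucleus's depth, where 1 means counting alone. Over all members 715 of 4321 genes were above 2. The 10 highest were 9630013A20Rik, Dpp10, Kcnip4, Malat1, Frmd4a, Lrrtm4, Pcdh9, Tmeff2, Tnr and Lsamp. Dpp10, Kcnip4 and Lrrtm4 are neuronal genes, and in the neuron-rich nuclei Kcnip4 stood at 9504 CPM against 212 CPM in the other members. The scatter of Lrrtm4 and Kcnip4 did not rest on those nuclei alone. Over the 218 members outside the neuron-rich set and the 5 nuclei they still ranked 3 and 4, with variance ratios of 27.7 and 27.4. They came after 9630013A20Rik at 37.0 and Malat1 at 30.8. Dpp10 was no longer among the 10 highest once the neuron-rich nuclei were left out. Without the neuron-rich nuclei 343 of 3172 genes were above 2, and without the 5 nuclei as well 260 of 3010, with a median ratio of 1.24 over those genes.

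Within the 218 remaining members, Enpp6, Anln, Apod and Trf varied together. For each of 24 genes, chosen after their variance was seen, the residual of each count from its expectation by depth was correlated over the 218 nuclei, as a description of 1 library with shared depth. Enpp6 and Anln, for the cytoskeletal scaffold anillin, had a correlation of 0.65 (0.47 over 179 nuclei thinned to 2000 UMIs), Anln and Apod, for apolipoprotein D, 0.66 (0.42 thinned) and Apod and Trf 0.54 (0.41 thinned). Enpp6 went against Ptgds at -0.37 (-0.35 thinned), and Anln against Opalin at -0.38 (-0.29 thinned).

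The 47 of the 218 nuclei with an Enpp6 UMI were then set beside the 171 without, a division made after the correlations were seen. Anln was at 885 CPM with Enpp6 and 194 CPM without, a ratio of 4.56 (3.56 to 5.86), and Apod at 1534 and 679 CPM, a ratio of 2.26 (1.93 to 2.64). Ptgds was at 494 and 2902 CPM, a ratio of 0.17 (0.14 to 0.21). It was held by 22 of 47 nuclei with Enpp6 and by 158 of 171 without, although the former were deeper, at 3650 against 2917 UMIs at the median. Kirrel3, an adhesion gene, was at 808 and 2530 CPM, a ratio of 0.32 (0.27 to 0.38). Mbp differed little, with a ratio of 1.11 (1.03 to 1.19), and Il33 and Opalin had ratios of 0.58 and 0.59. Unlike the 5 nuclei above, those with Enpp6 here held Apod in 43 of 47 cases and Trf in all 47. Median Malat1 was 5.54% with Enpp6 and 5.94% without.

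A further set of genes varied together, and also with nuclear depth and Malat1. It was linked to the pattern above, with Trf against Erbb4 at -0.40 (-0.33 thinned), Trf with Fth1 at 0.47 (0.32 thinned) and Kirrel3 with Erbb4 at 0.45 (0.28 thinned). Nfasc was correlated with Tmeff2 at 0.65 (0.42 thinned), Mbp at 0.59 (0.40 thinned), Pcdh9 at 0.56 (0.46 thinned) and Ank3 at 0.50 (0.32 thinned). Fth1, for ferritin heavy chain, was correlated with Actb, for beta actin, at 0.51 (0.34 thinned), and Nfasc went against Fth1 at -0.41 (-0.29 thinned) and Trf at -0.45 (-0.27 thinned). In the same nuclei the Nfasc residual had a correlation of 0.35 with the share of Malat1 and 0.31 with log depth, and that of Fth1 had 0.34 with the mitochondrial share. Their part in the pattern was not tested. For Enpp6 the corresponding values were -0.08, 0.10 and -0.06, and for Ptgds 0.04, -0.23 and 0.15, for Malat1, log depth and mitochondrial share in this order. Other genes of the Enpp6 and Anln pattern followed Malat1 more, with -0.18 for Anln, -0.23 for Apod, -0.19 for Trf, -0.25 for Hapln2 and 0.29 for Kirrel3.

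**Figure D5:**
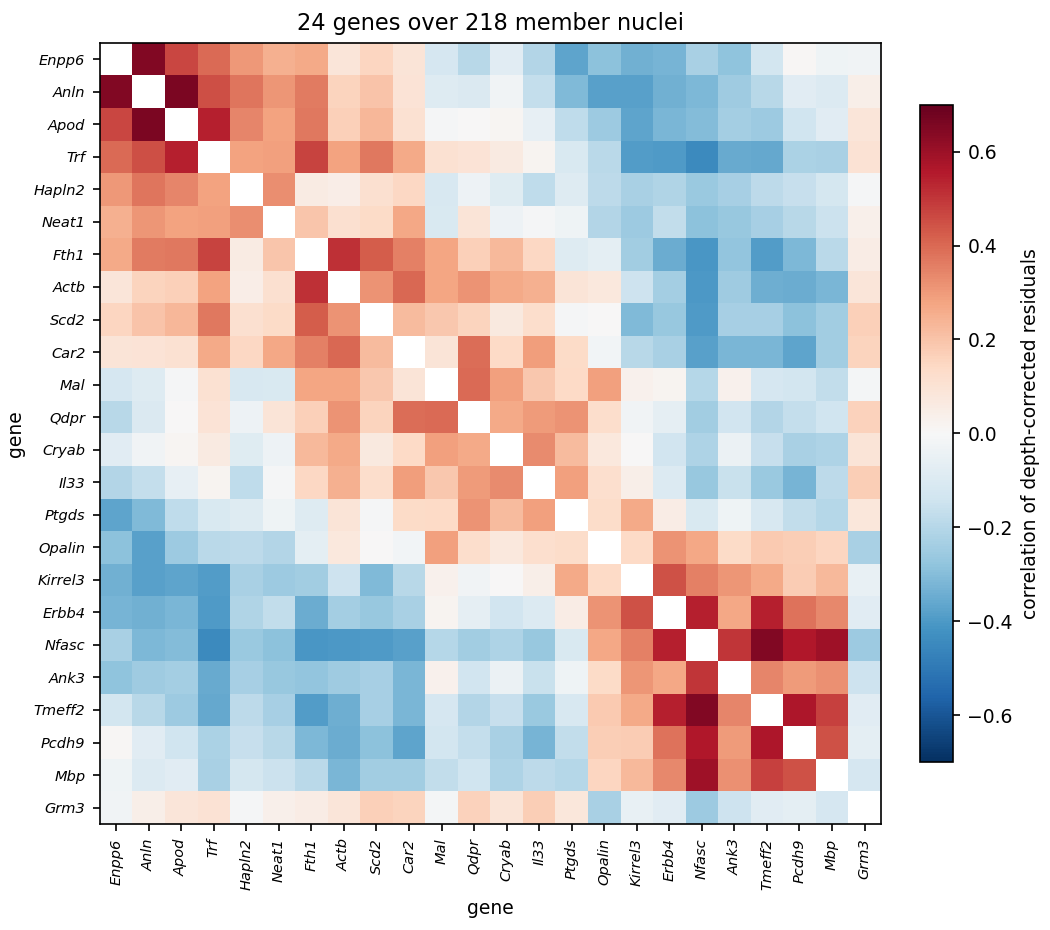
Colour gives the correlation, over 218 member nuclei, of the depth-corrected residuals of 24 genes, red for positive and blue for negative values. Enpp6, Anln, Apod and Trf form a red block at the upper left, and Erbb4, Nfasc, Ank3, Tmeff2, Pcdh9 and Mbp another at the lower right.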

How the data were processed

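The authors made nuclei from a frozen section, sequenced droplet-based 3′ libraries, aligned the reads to mm10 with intronic reads included and deposited UMI counts per gene and barcode (32285 genes), without normalization. Per the file headers, Cell Ranger 6.1.2 was used for the adult library and 7.0.1 for the embryonic one. No background correction was added, and spatial positions were not analysed here. The paper states that CellBender was used for background correction of the embryonic library and does not name the adult one. Whether the deposited embryonic counts carry that correction was not tested. The adult file holds 1661 barcodes and the embryonic file 9037. No column belonged to a sample outside these libraries.

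Counts were summed over the nuclei of a class and scaled to CPM, with 95% exact Poisson intervals. Ratios carry exact conditional intervals, and shares exact binomial (Clopper-Pearson) intervals. UMI duplicates are removed, but intervals and floors cover counting error only. Counts under 3 were set to 3 in ratios. Precursors and astrocytes held at least 2 UMIs over their pair and no more than 1 over the other pair. Neurons held UMIs for at least 4 of 6 neuronal genes, no more than 1 UMI over either pair and under 3 of the 6 member genes. Doublets were kept in the main values. Scrublet (scanpy 1.11.5) marked 7 barcodes automatically (0.421%), so the 22 highest scores at an expected 0.8% per 1000 barcodes were used instead. Of the adult barcodes 1 was shared with the embryonic library, and no member was. Analyses ran in Python 3.11.15 with numpy 2.4.6 and scipy 1.17.1. On simulated counts the code was tested for recovery of known ratios.

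The members and the gene lists were chosen with earlier results of these data known. Genes named are those of 24 lists, described by role, the 15 highest and 10 lowest ratios among genes with at least 100 UMIs in the higher group outside the rule, and the 10 highest variance ratios. Any other gene was chosen after its values were seen. Alternatives changed the rule's limits, the weighting of nuclei, the depth and the minimum count. Results for a few genes are not reported here.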

Additional observations from a re-analysis of the deposited data

Results flagged for a closer look

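The same rule applied to the embryonic day 14 brain, a stage at which myelinating oligodendrocytes are not yet formed, was met by 36 of 7445 barcodes within the limits, 0.484% (95% exact binomial interval, 0.339 to 0.669), against 18.9% in the adult. This signal lies in a library that the comparisons did not use. The 36 barcodes had 28268 UMIs at the median, 34 of them held 4 or more of the 6 neuronal genes and only 2 held 4 or more of the rule's 6 genes. Mbp stood at 25.9 CPM in them, against 3829 CPM in adult members, and Mobp, Mal and Opalin had no UMI. St18, which the rule uses, was found in all 36 at 153 CPM. Of the rule's other genes, Mog was found in 32 at 29.0 CPM, Prr5l in 21, Ugt8a in 17 and Mag in 4. No explanation was tested.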

How the results depend on the processing

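Of the 17 genes followed through 12 alternatives each, 15 stayed on the same side of 4-fold in all 12. Syt1 did so in 11 and Slc1a2 in 10, where their ratios ranged up to 0.254 and 0.262. Over these ratios and the shares at equal depth, 136 values moved by less than their counting interval and 81 by more, and no called gene turned its direction. Cx3cr1, which was not called, ranged from 0.437 to 1.41. The count of genes 4-fold lower in members (801) was 1794 without the neuron-rich nuclei, 1208 without the nuclei marked as doublets, 2001 with the mean of each nucleus's share in place of sums, and 1795 without the neuron-rich nuclei and the 5 nuclei rich in newly formed genes. The count of genes 4-fold higher (627) was 353 with each nucleus thinned to 1000 UMIs, where fewer genes enter. With no minimum beyond 1 UMI it was 7086, a value that the floor of 3 counts inflates. A gene with under 3 UMIs in both groups then enters with both counts set to 3. Because the other barcodes have the larger total, such a gene passes 4-fold higher whatever its counts. Genes 4-fold lower than in precursors (160) numbered 346 without the neuron-rich nuclei and 364 by mean shares, and those lower than in astrocytes (636) 1169 without the neuron-rich nuclei. Those lower than in neurons (767) numbered 1691 and 1738 by the same changes. Genes with a variance ratio above 2 (715) numbered 343 without the neuron-rich nuclei and 260 without the 5 nuclei as well. Leaving out the 5 nuclei and the member-gene holders among references was chosen after seeing the data. Elsewhere the cause was not tested. No paired analysis was possible because there is 1 library per tissue and no replicate numbers in the labels. At 3226 UMIs at the median, a gene absent from a nucleus may have been missed.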

Other observations

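Cx3cr1, a receptor gene of microglia, was the highest of the microglial list in members, with 39 UMIs in 24 of the 223 nuclei that were not neuron-rich, while P2ry12, more abundant in the other barcodes, had 9. The ratio of Cx3cr1 to the other barcodes was 1.23 in these nuclei, and it ranged from 0.437 to 1.41 over the alternatives. Its annotated span (chr9:119901616-120069879, minus strand, GENCODE vM21 on GRCm38) ends 79827 bases before the start of Mobp and overlaps 9 other annotated genes. Csf1r and C1qa, also defining for microglia, had 6 and 5 UMIs in the same nuclei.

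Foxj1, a factor of ciliated cells, had 8 UMIs in 8 members against 5 UMIs in the 1025 other barcodes, a ratio of 20.8 (6.01 to 80.9) below the minimum of 50 UMIs, while 5 of the 8 ependymal and choroid plexus genes had none in members. Piezo2, a mechanosensitive channel gene, had 27 UMIs in 17 members, none of them neuron-rich. Its ratio of 18.5 (9.91 to 35.2) also lay below the minimum of 50 UMIs. Pde4b, a cyclic AMP phosphodiesterase gene, was held by 237 members at 6546 CPM against 208 CPM, a ratio of 31.4 (30.1 to 32.8), and its ratio was 17.6 to astrocytes and 3.34 to the 32 precursors. With the nuclei holding member genes left out of both references, these Pde4b ratios were 28.5 (25.1 to 32.4) and 6.79 (5.83 to 7.94).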
